A study of Homo sapiens with 12 samples.

Results

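The TRIM genes encode tripartite motif proteins, and their transcripts were followed here in A549, an epithelial line from a human lung carcinoma, with and without RNase L. Members were the rows of the authors' table whose symbol was TRIM followed by a number alone, and those with at least 1 FPKM in any group were described. FPKM counts sequenced fragments scaled by transcript length and library size. Of 65 such rows 34 reached that level, among 22087 of 58671 gene rows that did, so the members were chosen by their FPKM levels in the 4 groups. Of the 34, 31 had at least 1 FPKM in every group, so their choice did not turn on any comparison. The other 3 were TRIM22, TRIM29 and TRIM45.

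There were 4 groups of 3 samples, 12 in all: RNase L knockout (RLKO) A549 cells 6 h after transfection of poly(I:C) at 500 ng/ml, untreated RLKO cells, parental (WT) A549 cells given poly(I:C) in the same way, and untreated WT cells. Poly(I:C) is a synthetic double-stranded RNA, and total RNA was depleted of rRNA after spike-in RNA had been added. The design sets each treated group beside its untreated one, and the genotypes beside each other, to follow the part of RNase L, the endoribonuclease that is switched on by 2-5A during the response to double-stranded RNA. The samples of a group are described as independent; whether they were separate cultures, and how many clones the RLKO line holds, was not given in the sources used here.

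Each group had 1 value in the table, pooled by the authors over 3 samples, so no value below has a spread or a known read depth, and single samples cannot be shown. The only test over samples was the authors' own, poly(I:C) against untreated within a genotype, and the words rose and fell are kept for genes with q under 0.05 in the authors' deposited table. Of 6 epithelial markers at least 5 reached 1 FPKM in each group, as did 1 of 3 fibroblast markers (at most 7.17 FPKM) and none of 4 blood cell and 2 endothelial markers. Spike-in FPKM after poly(I:C) was 1.13 times the untreated level in RLKO cells and 1.53 times in WT cells. Each log2 change below was therefore taken on the spike-in scale after adding 1 FPKM, which understates the change of low genes, and stands beside the median of the 12181 protein-coding genes that reached 1 FPKM, -0.24 in RLKO and -0.70 in WT. On that scale fewer cells and less RNA per cell cannot be told apart. The p-values and q-values given below belong to the authors' test on their own scaling, and the spike-in-scaled log2 changes themselves were not tested.

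TRIM proteins carry a RING finger, 1 or more B-boxes and a coiled coil, and differ in the domain that follows. The RING makes most of them E3 ubiquitin ligases, which hand ubiquitin from an E2 enzyme to a target. Several restrict viruses or tune the sensing of viral nucleic acid, and a subset is induced by interferon through the interferon-stimulated response element, a promoter sequence bound by the ISGF3 complex and by interferon regulatory factors.

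The core of that element was looked for in RefSeq promoter windows (GRCh38.p14, 250 bases before to 50 after a start), because it is the sequence through which interferon is known to act on such genes. The motif was GAAANNGAAA on either strand. Windows were held for 24 of the 34 members, 31 windows in all, and 6 of them (19.4%) contained it, as did 3.57% of all 35116 windows. Of 27 TRIM genes under 1 FPKM with a window, 3 had the motif: TRIM26, TRIM2 and TRIM69. Stretches of 30 bases around the match are shown for the 6 members with a match and for TRIM26. They run 5′ to 3′ on the strand of the gene, with the match in capitals. Overlapping matches are joined.
TRIM21: ctgagcgGAAACTGAAAGTGAAAtagggag
TRIM14: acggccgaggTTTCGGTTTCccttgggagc
TRIM5: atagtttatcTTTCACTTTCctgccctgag
TRIM34: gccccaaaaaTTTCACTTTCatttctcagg
TRIM44: tcctgacgggGAAAGGGAAAgtggaaccgg
TRIM16: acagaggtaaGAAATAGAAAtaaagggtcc
TRIM26: cgcctgaTTTCAGTTTCCATTTCgctgccc
The TRIM21 stretch (chr11:4393663-4393692, minus strand) holds 3 GAAA blocks in a row, at positions 18 to 33 after the start counted as 1. In TRIM14 (chr9:98119229-98119258, minus strand) the match lies at -26 to -17, and in TRIM5 (chr11:5685082-5685111, minus strand) at -27 to -18. TRIM34 (chr11:5624901-5624930, plus strand) has it at -90 to -81, with the same 10 letters as TRIM5. TRIM44 (chr11:35662730-35662759, plus strand) has it at -35 to -26 and TRIM16 (chr17:15683012-15683041, minus strand) at -80 to -71. A match is a run of letters, not a measured site. The transcripts that carried it did not behave alike: in WT cells the log2 change was 0.77 for TRIM14, 0.70 for TRIM21 and 0.51 for TRIM5, but -0.16 for TRIM44, -1.26 for TRIM16 and -1.39 for TRIM34. TRIM44 had 1.36 times the untreated FPKM as deposited in WT, so its direction there turns with the scaling.

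In WT cells 1 of the 34 members rose in the authors' deposited table and none fell, where 4.48% of all genes at 1 FPKM or more rose and 3.35% fell (4.27% and 3.09% of the protein-coding ones). In RLKO cells Cuffdiff called none of the 34 in either direction in the authors' deposited table, where 0.512% of all genes rose and 0.0272% fell (0.821% and 0.0246% of the protein-coding ones). At an unadjusted p under 0.05, 3 members were higher and 1 lower in WT, beside 9.22% and 9.98% of all genes and 9.02% and 12.1% of protein-coding genes. In RLKO 1 was higher and none lower, beside 1.44% and 2.23% of all genes and 2.21% and 1.86% of protein-coding genes. These counts are too small to set the members apart from those shares. Without a test, 5 of 34 members had at least 1.5 times the untreated FPKM in treated RLKO cells and 1 had 1/1.5 of it or less, as had 6.67% and 24.2% of all genes and 5.59% and 15.4% of protein-coding genes. In WT 13 and 5 members did, beside 34.2% and 29% of all genes and 22% and 34.6% of protein-coding genes.

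TRIM21, the cytosolic receptor for the constant part of antibodies, was the member that rose. It had 31.8 FPKM in treated and 12.9 FPKM in untreated RLKO cells, and 24.4 FPKM in treated and 9.51 FPKM in untreated WT cells. Both treated groups stood above both untreated ones. In the authors' deposited table q = 0.0274 in WT, from their own test of the levels. The log2 change on the spike-in scale, which that q does not test, was 0.70 in WT. In RLKO the log2 change was 1.07, but the order turns with the scaling, since treated FPKM as deposited was 2.48 times the untreated in RLKO and 2.57 times in WT. The q in RLKO was 0.145 in the authors' deposited table, so the call in WT alone does not show that the genotypes differ, and that difference was not tested. The gene lies on chromosome 11 from 4384897 to 4393696 (GRCh38), and no other gene at 1 FPKM or more overlaps it.

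**Figure D1:**
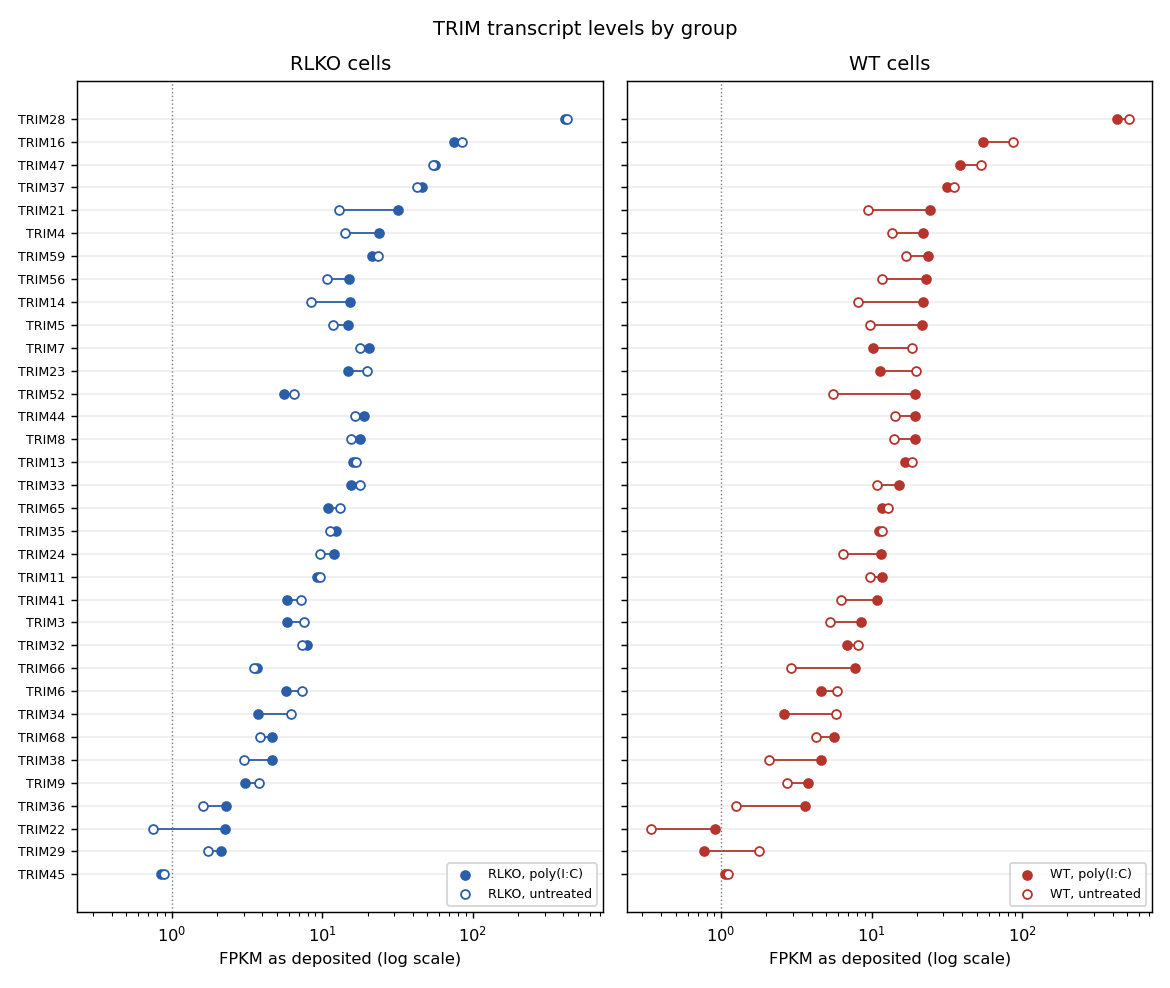
FPKM as deposited (horizontal log axis) for the 34 TRIM genes, 1 per line in order of their highest value, in RLKO cells (left, blue) and WT cells (right, red). Filled circles are poly(I:C) groups and open circles untreated groups, each the authors' value pooled over 3 samples with no error available; the dotted line marks 1 FPKM. TRIM52 spreads widely in WT (19.4 against 5.56 FPKM) and little in RLKO (5.54 against 6.54 FPKM).

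A list of 10 TRIM genes known as interferon-inducible or antiviral had 8 members at 1 FPKM or more, of which 1 (TRIM21) rose in WT and none was called in RLKO. Of all genes at that level 4.48% rose in WT and 0.512% in RLKO, so counts among 8 do not set the list apart. In FPKM, 19 of all 34 members were higher after poly(I:C) in RLKO and 20 in WT. On the spike-in scale 14 members had a log2 change above 0 in RLKO and 13 in WT. So had 4499 in RLKO and 8650 in WT of all 22087 genes, and 2411 and 2632 of the 12181 protein-coding ones. Of the 8 listed ones 6 were higher in FPKM in RLKO and the same number in WT. Without TRIM22, whose treated RLKO value alone made it a member, 5 of 7 listed ones were higher in each. Their median log2 change was 0.32 in RLKO and 0.37 in WT, beside -0.12 and -0.25 for the 26 members outside the list, and without TRIM22 it was 0.30 in RLKO and 0.40 in WT. In FPKM as deposited these medians were 0.48 and 0.89 for the list and 0.00 and 0.29 for the others.

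TRIM14, which lacks a RING and acts at mitochondria as an adaptor in RIG-I signalling, had 15.3 FPKM in treated and 8.40 FPKM in untreated RLKO cells, and 21.96 FPKM in treated and 8.08 FPKM in untreated WT cells. TRIM5, which binds the capsid of incoming retroviruses, had 14.8 FPKM in treated and 11.7 FPKM in untreated RLKO cells, and 21.6 FPKM in treated and 9.71 FPKM in untreated WT cells. TRIM56, a RING protein of the class without a further C-terminal domain that takes part in antiviral signalling, had 15.2 FPKM in treated and 10.7 FPKM in untreated RLKO cells, and 23.0 FPKM in treated and 11.7 FPKM in untreated WT cells. In FPKM as deposited each treated group of these 3 genes stood above both untreated ones and the highest value was that of treated WT. On the spike-in scale treated RLKO was 0.09 below untreated WT (log2) for TRIM56. In the authors' deposited table their q in WT was 0.27, 0.292 and 0.383, so none passed.

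TRIM38, which restrains inflammatory signalling, had 4.66 FPKM in treated and 3.03 FPKM in untreated RLKO cells, and 4.59 FPKM in treated and 2.09 FPKM in untreated WT cells (unadjusted p = 0.0167 and q = 0.127 for WT in the authors' deposited table). The antisense gene U91328.2, which overlaps TRIM38, had 6.49 FPKM in treated and 6.67 FPKM in untreated RLKO cells. In WT cells U91328.2 had 6.99 FPKM treated and 2.98 FPKM untreated, and its part in the TRIM38 values was not tested. TRIM22, an antiviral gene beside TRIM5, was low, with 2.26 FPKM in treated and 0.751 FPKM in untreated RLKO cells, and 0.909 FPKM in treated and 0.341 FPKM in untreated WT cells. It is among the members through its treated RLKO value alone, so its treated value had to stand above the others there. TRIM5 and TRIM22 lie on opposite strands of the same stretch, and strandedness of the libraries was not given in the sources used here.

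Both other listed genes stood lower after treatment. TRIM34, which restricts retroviruses and neighbours TRIM5, had 3.73 FPKM in treated and 6.18 FPKM in untreated RLKO cells, and 2.61 FPKM in treated and 5.75 FPKM in untreated WT cells. Its log2 change, -0.74 in RLKO and -1.39 in WT, was the lowest of the members in both genotypes on that scale, with q = 0.613 for WT in the authors' deposited table. By the ratio of FPKM in WT, TRIM29 was lower (0.429 times the untreated, against 0.453 times for TRIM34). TRIM6, which makes free ubiquitin chains in interferon signalling, had 5.78 FPKM in treated and 7.29 FPKM in untreated RLKO cells, and 4.57 FPKM in treated and 5.87 FPKM in untreated WT cells. The read-through gene TRIM6-TRIM34, which shares exons with both, had 0.574 FPKM in its highest group.

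**Figure D2:**
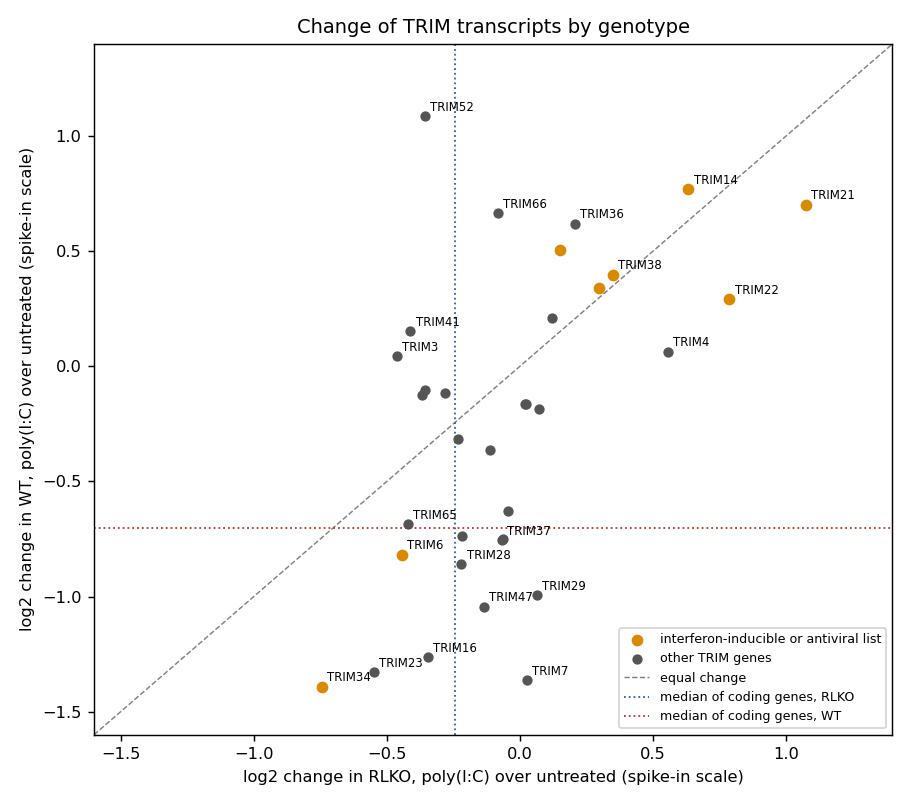
Log2 of poly(I:C) over untreated levels on the spike-in scale (pseudocount 1) in RLKO (horizontal axis) and WT (vertical axis), 1 point per TRIM gene with no error available; orange points are the interferon-inducible or antiviral list. Dotted lines mark the medians of protein-coding genes, -0.24 in RLKO and -0.70 in WT, and the dashed line equal change. TRIM21 lies far to the right (1.07, 0.70) and TRIM52 at the top (-0.36, 1.09).

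Over all 34 members the median log2 change was -0.08 in RLKO and -0.16 in WT, on either side of which lay single values from -0.74 to 1.07 in RLKO and from -1.39 to 1.09 in WT. The same medians over protein-coding genes were -0.24 and -0.70. In FPKM as deposited the TRIM medians were 0.07 in RLKO and 0.38 in WT, above 0 where the spike-in-scaled ones are below it, and those of protein-coding genes -0.10 and -0.17. Since levels differ between sets, members were also set beside protein-coding genes of like level. At 1 to 5 FPKM in untreated RLKO cells, 6 members had medians of 0.07 in RLKO and 0.14 in WT, and 2422 protein-coding genes -0.18 and -0.25. At 5 to 20 FPKM, 21 members had medians of -0.06 in RLKO and -0.16 in WT, and 3960 protein-coding genes -0.21 and -0.61. At 20 to 100 FPKM, 4 members had medians of -0.21 and -0.90, and 3590 protein-coding genes -0.32 and -1.13. These medians describe pooled values and carry no test.

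**Figure D3:**
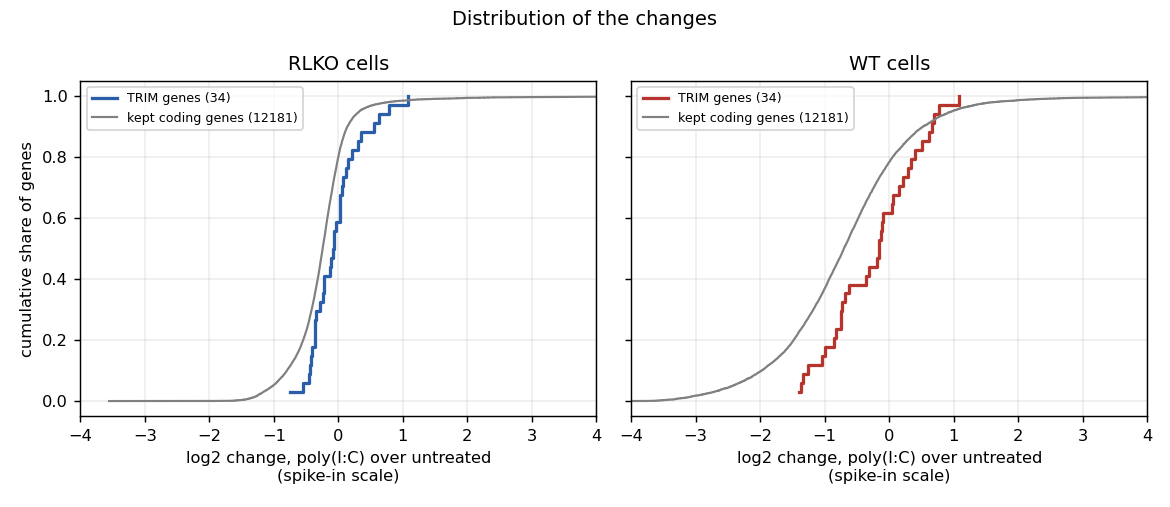
Cumulative share of genes (vertical axis) by log2 change after poly(I:C) on the spike-in scale (horizontal axis) for the 34 TRIM genes (coloured steps) and the 12181 protein-coding genes past that level (grey), in RLKO (left) and WT (right). The TRIM steps lie to the right of the grey line over most of their range, with medians of -0.08 against -0.24 in RLKO and -0.16 against -0.70 in WT.

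By structure, the most abundant member belonged to the class of 4 with a PHD finger and a bromodomain. TRIM28, the corepressor recruited by KRAB zinc-finger proteins, had 410.1 FPKM in treated and 422.3 FPKM in untreated RLKO cells, and 429.5 FPKM in treated and 509.3 FPKM in untreated WT cells, the highest of all 34 in every group. On the spike-in scale the log2 change of TRIM28 was -0.22 in RLKO and -0.86 in WT. TRIM33, a regulator of TGF-beta signalling, had 15.6 FPKM in treated and 18.0 FPKM in untreated RLKO cells, and 15.3 FPKM in treated and 10.8 FPKM in untreated WT cells. TRIM66 had 3.69 FPKM in treated and 3.51 FPKM in untreated RLKO cells, and 7.73 FPKM in treated and 2.89 FPKM in untreated WT cells. Only the treated WT value of TRIM66 stands apart (q = 0.364 in the authors' deposited table). TRIM66 overlaps RPL27A on the opposite strand, a ribosomal protein gene with 783.6 FPKM in treated and 1606 FPKM in untreated RLKO cells, and 398.9 FPKM in treated and 1884 FPKM in untreated WT cells. The antisense gene AC091053.2, which also overlaps TRIM66, had 0.632 FPKM in treated and 0.951 FPKM in untreated RLKO cells. In WT cells AC091053.2 had 2.68 FPKM treated and 0.990 FPKM untreated. The part of either gene in the TRIM66 values was not tested.

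Among the 4 members without a RING finger, TRIM16, which takes part in the removal of damaged endomembranes, was the most abundant. It had 74.8 FPKM in treated and 84.4 FPKM in untreated RLKO cells, and 54.8 FPKM in treated and 87.0 FPKM in untreated WT cells. Its log2 change was -0.35 in RLKO and -1.26 in WT (q = 0.48 for WT in the authors' deposited table). TRIM16L, a close relative of TRIM16, had 74.7 FPKM in treated and 86.8 FPKM in untreated RLKO cells, and 45.0 FPKM in treated and 86.5 FPKM in untreated WT cells. Reads may have been split between the pair where their sequences are alike, which was not tested. TRIM29, known from epithelia, had 2.12 FPKM in treated and 1.75 FPKM in untreated RLKO cells, and 0.764 FPKM in treated and 1.78 FPKM in untreated WT cells. Treated WT was the lowest of its 4 groups (unadjusted p = 0.0183 and q = 0.135 in the authors' deposited table). TRIM44 stood between 14.2 and 19.3 FPKM in all groups.

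The class with a RING and a C-terminal PRY-SPRY domain, a fold that binds targets, held 14 members, of which 9 had the higher FPKM after poly(I:C) in RLKO and 8 in WT. Over all 34 members these counts were 19 and 20, so they do not set the class apart. TRIM47 had 56.2 FPKM in treated and 54.6 FPKM in untreated RLKO cells, and 38.7 FPKM in treated and 52.9 FPKM in untreated WT cells. TRIM7, known as a partner of glycogenin, had 20.5 FPKM in treated and 17.8 FPKM in untreated RLKO cells, and 10.3 FPKM in treated and 18.5 FPKM in untreated WT cells, so that 3 groups were close and treated WT was low (q = 0.501 in the authors' deposited table). TRIM4 had 23.9 FPKM in treated and 14.1 FPKM in untreated RLKO cells, and 21.9 FPKM in treated and 13.6 FPKM in untreated WT cells, higher in FPKM after treatment in both genotypes without passing, with a spike-in-scaled log2 change of 0.56 in RLKO and 0.06 in WT. TRIM41 had 5.83 FPKM in treated and 7.17 FPKM in untreated RLKO cells, and 10.8 FPKM in treated and 6.27 FPKM in untreated WT cells. TRIM65, which adds ubiquitin to the RNA sensor MDA5, stood between 10.9 and 13.2 FPKM in all groups. Treated FPKM of TRIM11, TRIM35 and TRIM68 was between 0.946 and 1.31 times the untreated. On the spike-in scale the log2 change in WT was -0.69 for TRIM65, -0.63 for TRIM35, -0.32 for TRIM11 and -0.19 for TRIM68.

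Of the 3 members with a RING and B-box but no further domain, TRIM52 showed the widest gap between the genotypes. It had 5.54 FPKM in treated and 6.54 FPKM in untreated RLKO cells, and 19.4 FPKM in treated and 5.56 FPKM in untreated WT cells. Treated WT stood alone, at a log2 change of -0.36 in RLKO and 1.09 in WT, but in WT q was 0.302 in the authors' deposited table. A noncoding gene on the opposite strand, CTC-338M12.4, had 4.56 FPKM in treated and 4.77 FPKM in untreated RLKO cells, and 14.5 FPKM in treated and 6.19 FPKM in untreated WT cells; its part in the TRIM52 values was not tested. TRIM8 stood at 17.9 FPKM in treated and 15.6 FPKM in untreated RLKO cells, and at 19.3 FPKM in treated and 14.2 FPKM in untreated WT cells.

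The smaller classes had few members. TRIM36, with a COS box that binds microtubules, had 2.29 FPKM in treated and 1.62 FPKM in untreated RLKO cells, and 3.59 FPKM in treated and 1.25 FPKM in untreated WT cells, the second lowest q of the members in WT (0.0688 in the authors' deposited table). TRIM9, of the same class and known from neurons, stood between 2.75 and 3.78 FPKM. TRIM23, which carries an ARF domain, had 14.9 FPKM in treated and 19.7 FPKM in untreated RLKO cells, and 11.3 FPKM in treated and 19.8 FPKM in untreated WT cells. TRIM37, with a MATH domain and a role in centriole assembly, had 45.9 FPKM in treated and 42.5 FPKM in untreated RLKO cells, and 31.6 FPKM in treated and 35.4 FPKM in untreated WT cells. Both NHL members were below 10 FPKM: TRIM3 had 5.87 FPKM in treated and 7.51 FPKM in untreated RLKO cells, and 8.44 FPKM in treated and 5.32 FPKM in untreated WT cells. TRIM32, mutated in a limb-girdle muscular dystrophy, stood between 6.88 and 8.09 FPKM. The membrane-anchored TRIM13 stood between 16.1 and 18.7 FPKM and TRIM59 between 16.8 and 23.7 FPKM. TRIM45, with a filamin domain, stood between 0.843 and 1.12 FPKM, just over the threshold, and just under it were TRIM62 at 0.896, TRIM46 at 0.865 and TRIM72 at 0.73 FPKM in their highest group. On the spike-in scale the log2 change in WT was -1.33 for TRIM23, -0.75 for TRIM32, -0.75 for TRIM37 and -0.74 for TRIM13. It was -0.36 for TRIM45, -0.12 for TRIM9, -0.11 for TRIM59, 0.04 for TRIM3 and 0.62 for TRIM36, beside -0.70 over protein-coding genes.

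Set between genotypes, untreated levels lay close together, with 31 of 34 within 1.5-fold in FPKM as deposited and all 34 on the spike-in scale with its pseudocount of 1. The exceptions in FPKM were TRIM22, TRIM33 (18.0 FPKM in untreated RLKO and 10.8 FPKM in untreated WT cells) and TRIM24, a coregulator of nuclear receptors (9.70 FPKM in untreated RLKO and 6.41 FPKM in untreated WT cells). On the spike-in scale the log2 difference of untreated RLKO minus WT had quartiles of -0.31 and 0.04 over the members. The quartiles were -0.44 and -0.03 over protein-coding genes and -0.41 and 0.08 over all genes at 1 FPKM or more. Close untreated levels therefore do not set the members apart. The median difference of the log2 changes, WT minus RLKO, was -0.25, with 21 members below 0 and 13 above it, and -0.47 over protein-coding genes. The difference was above 0 for 9965 of all 22087 genes at 1 FPKM or more and for 3255 of the 12181 protein-coding ones. The split of the members lies between those shares and does not set them apart. In FPKM as deposited the median difference was 0.12 for TRIM genes and -0.10 for protein-coding genes. The lowest differences were those of TRIM7 (-1.39), TRIM29 (-1.06), TRIM16, TRIM47 and TRIM23, and the highest those of TRIM52 (1.44), TRIM66 (0.75), TRIM41, TRIM3 and TRIM36. Of the 13 members with at least 1.5 times the untreated FPKM in WT, 5 were at that fold in RLKO too (TRIM4, TRIM14, TRIM21, TRIM22 and TRIM38), TRIM22 having passed the 1 FPKM filter through that group alone, and 3 were below their untreated level there (TRIM3, TRIM41 and TRIM52). These folds are of FPKM as deposited, in which spike-in levels differed by 1.53 times in WT. On the spike-in scale 3 members (TRIM14, TRIM21 and TRIM22) were 1.5-fold or more higher in RLKO and 5 (TRIM14, TRIM21, TRIM36, TRIM52 and TRIM66) in WT. None of these differences could be tested, as the table holds no test between genotypes.

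The 34 members lie on 13 chromosomes, and 13 of them in 3 clusters. The cluster of 8 on chromosome 11, within 4.30 Mb (4384897 to 8682694), ranged from -1.39 (TRIM34) to 0.70 (TRIM21) in WT. TRIM7, TRIM41 and TRIM52, which lie within 0.0672 Mb near the end of chromosome 5 (181193924 to 181261139), had log2 changes of 0.03, -0.41 and -0.36 in RLKO and of -1.36, 0.15 and 1.09 in WT. TRIM47 and TRIM65, within 0.0228 Mb on chromosome 17, had log2 changes of -0.14 and -0.42 in RLKO and of -1.04 and -0.69 in WT. Of the 34 members 19 overlap another gene at 1 FPKM or more, 18 of them on the opposite strand, so reads of the partners cannot be told apart if the libraries did not keep the strand.

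The transcripts of the members were long and, by the half-lives that the authors took from another study and that are read here as hours, short-lived. The median transcript was 4280 bases long, against 3623 bases over protein-coding genes at 1 FPKM or more, and the median 3′ UTR 1784 bases, against 1384 bases. Of 28 members with a half-life 21 were under the median of those protein-coding genes, 4 h, and the members' own median was 2.74 h (range 2.13 to 10.1 h). TRIM28 at 10.1 h and TRIM14 at 9.86 h were the longest-lived. Across protein-coding genes the half-life and the log2 change in WT had a Spearman rho of -0.51 (9527 genes), and across the 28 members it was -0.10. These are correlations across genes of the same libraries, which are not independent replicates. GC content was alike, with medians of 44.7% in the members and 44.5% in protein-coding genes.

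Of the 31 rows under 1 FPKM, 17 had a value and 14 were listed at 0 in all 4 groups. Of those 14, 7 lie on chromosome 6 between 28903002 and 30343729 (GRCh38): TRIM27, TRIM31, TRIM40, TRIM10, TRIM15, TRIM26 and TRIM39, in the major histocompatibility complex and beside it. In that stretch 32 of 33 protein-coding rows (97.0%) were listed at 0, where 11.3% of 19894 protein-coding rows of the table were. The ends of the stretch were set by these 7 TRIM genes, which are themselves among the 32. PPP1R11 in that stretch, and ABCF1, TUBB and FLOT1 beyond it, genes that most cells use, were listed at 0 as well. The listing at 0 of these TRIM genes can therefore be a failed estimate and gives no level. TRIM26, whose window holds the motif shown above (chr6:30213578-30213607, minus strand), and TRIM27 can thus not be judged here. TRIM38, on the same chromosome outside that stretch, was measured in every group.

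**Figure D4:**
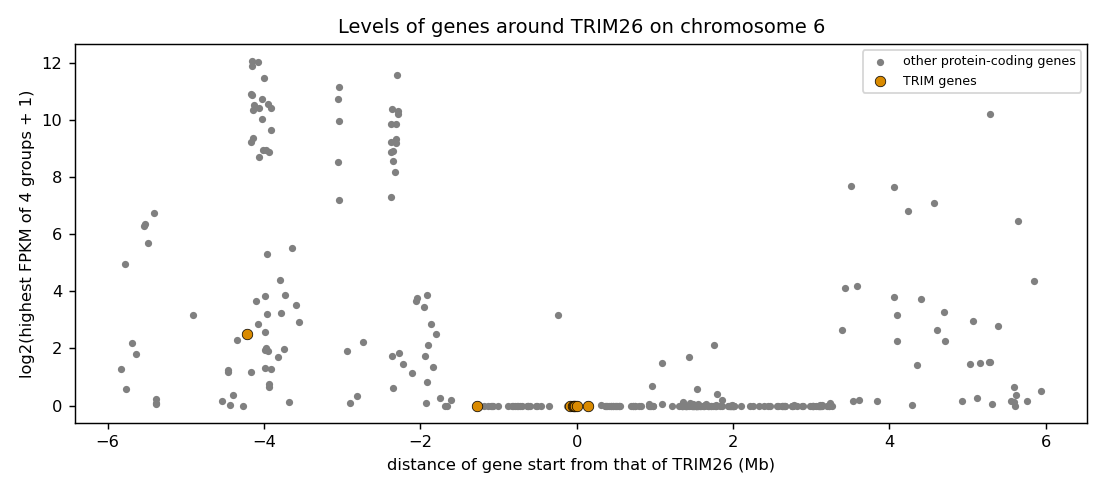
Highest FPKM of the 4 groups, as log2 after adding 1 (vertical axis), for protein-coding genes on chromosome 6 by the distance of their start from that of TRIM26 in Mb (horizontal axis); orange points are TRIM genes. The 7 TRIM genes listed at 0 sit in a stretch where nearly all genes are at 0, and TRIM38 lies at 4.66 FPKM to its left.

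Of 10 relatives named without a TRIM number, 6 reached 1 FPKM. Among those 6, 1 rose in WT and none was called in RLKO in the authors' deposited table. At 1 FPKM or more, 4.48% of all genes rose in WT and 0.512% in RLKO. Counts among 6 therefore do not set the relatives apart. The relative that rose was PML, also known as TRIM19, which forms nuclear bodies and is interferon-inducible. PML had 10.95 FPKM in treated and 4.56 FPKM in untreated RLKO cells (q = 0.652 in the authors' deposited table). In WT cells it had 17.04 FPKM treated and 3.38 FPKM untreated (q = 0.0018 in the authors' deposited table). Its WT log2 change on the spike-in scale, which that q does not test, was 1.51. MID1, a microtubule-bound ligase, had 71.5 FPKM in treated and 58.9 FPKM in untreated RLKO cells, and 52.8 FPKM in treated and 50.8 FPKM in untreated WT cells. MEFV, the pyrin gene, was under 1 FPKM in every group.

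A list of 25 genes for ubiquitin and for E1 and E2 enzymes had all 25 at 1 FPKM or more. Of these, 1 fell in WT and none was called in RLKO in the authors' deposited table. At an unadjusted p under 0.05 in that table, there were none in RLKO and 4, all lower, in WT. Of all genes 3.35% fell in WT and 9.98% were lower at that p, so these counts do not set the list apart. RPS27A, which encodes ubiquitin fused to a ribosomal protein, fell to 205.1 FPKM in treated WT cells, against 1272 FPKM in untreated WT cells (q = 0.0161 in the authors' deposited table). Its WT log2 change on the spike-in scale, which that q does not test, was -3.24. RPS27A had 468.3 FPKM in treated and 900.0 FPKM in untreated RLKO cells. UBE2N, the E2 of lysine-63-linked chains, had 99.9 FPKM in treated and 208.3 FPKM in untreated RLKO cells, and 61.1 FPKM in treated and 234 FPKM in untreated WT cells without passing. The median log2 change of the 25 was -0.46 in RLKO and -1.44 in WT, beside -0.08 and -0.16 for the TRIM members; the lists differ in level, and this difference was not tested.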

How the data were processed

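Total RNA of 12 samples was sequenced after rRNA depletion, with ERCC spike-ins. Per the submitters' processing notes the tools were Cuffdiff 2.2.1, TopHat2 2.0.6 with Bowtie2 2.0.2, Trimmomatic 0.32 and FastQC, on GRCh38.p12; settings were not listed. Per the file headers, the authors gave 1 FPKM value per group, and p-values and q-values within each genotype. GC content in percent, half-life and lengths are also as deposited, per the file headers. Depth and library scaling are unknown here. The planned tests over samples were not possible on pooled values, so the authors' q-values were used, threshold 0.05. All 58671 gene identifiers matched GENCODE v29 (GRCh38), which gave classes and coordinates. Rows of status HIDATA (86) and repeated identifiers (45) were left out. A scale factor per group, its median ratio to the cross-group geometric mean of 49 ERCC rows (above 0 in every group, mean at least 1 FPKM), was divided out. Scripts (Python 3.11) were tested on simulated data. Promoter windows are from RefSeq.

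Members and lists were chosen with earlier results of these data known. The genes given with values were every member past the threshold, the 5 highest and lowest changes per genotype and differences, the 5 most abundant in untreated WT, the 2 most abundant per structural class and those next to the 1 FPKM threshold; others, among them the rest of the interferon list and overlapping, neighbouring or related genes, were added after values were seen. Some further genes are not reported here. Alternatives were FPKM without scaling, median-ratio scaling, pseudocount 0.1, other filters and thresholds and, added after the data were seen, members without overlapping genes, the interferon list without TRIM22 and members at 1 FPKM in both untreated groups.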

Additional observations from a re-analysis of the deposited data

How the results depend on the processing

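With q under 0.1 in place of 0.05 the WT count was 2 (TRIM21 and TRIM36), and with q under 0.01 it was 0; the RLKO count stayed 0 under every filter and threshold run. The medians moved with the scaling. In RLKO the TRIM median was 0.07 in FPKM as deposited and 0.25 with median-ratio scaling, and in WT 0.38 and 0.33, all above 0 where the spike-in scale gave values below it. The WT minus RLKO difference was 0.12 in FPKM and -0.10 with median-ratio scaling. Untreated RLKO minus WT was -0.16 on the spike-in scale, 0.11 in FPKM and 0.02 with median-ratio scaling, and treated RLKO minus WT was 0.10, -0.03 and 0.12. A pseudocount of 0.1 gave -0.09 in RLKO, -0.17 in WT, -0.29 for the difference, -0.17 untreated and 0.11 treated. Members at 5 FPKM or more gave -0.11 in RLKO and -0.17 in WT, all 65 rows 0.00 in both, and the 15 members without an overlapping gene -0.04 and -0.19. In FPKM as deposited 5 members in RLKO and 7 in WT moved above 0, and none below; with median-ratio scaling 11 and 7 did. No sample could be left out in turn and the depth is unknown, since the table holds pooled values. No paired analysis was possible because the table holds 1 value per group.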
